A study of Homo sapiens with 6 samples.

Results

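In A2058 cells, an established human melanoma cell line, 10 genes stood much higher in the line overexpressing wild-type TET2 than in the Mock line: UTS2, HSD17B3, SEMA3G, CFAP251, PPP1R1C, CHRNA9, GPX3, MBL2, LAPTM5 and NALCN. They were chosen by their measured difference between the TET2WT and Mock arrays at both glucose concentrations, and make up 10 of the 14428 genes tested. That difference is therefore given below as a description with no test, as are the members' differences between TET2M and either of these lines. Expression was measured on 6 Affymetrix arrays. The 3 lines were Mock, TET2WT (labelled as overexpressing TET2WT) and TET2M (labelled as overexpressing TET2M, and named Mut in another field). Each line was cultured for 7 days in DMEM with 4.5 g/L glucose, called high, or 1 g/L, called normal, and each combination was measured on 1 array. All values are on the log2 scale, so a difference of 1 is a 2-fold change, and values of different genes come from different probes and are not set against each other.

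All 3 lines carry the A2058 background. Not given in the sources used here are the vector, its promoter, the change in the TET2M construct, and whether a line is 1 clone or a pool. An effect of a construct and a difference that a line carried from its derivation cannot be told apart, because each construct was measured in 1 line. The adjusted p-values below rest on the spread between single arrays after the line and glucose terms, with no repeated culture. In bulk RNA, a higher level in every cell and a larger share of expressing cells also cannot be told apart. The TET2 probe set with the highest level read 9.54 and 9.68 in TET2WT, 7.57 and 7.37 in TET2M and 3.81 and 4.13 in Mock, at high and normal glucose. Another TET2 probe set stayed at 5.15 to 5.41 over the 6 arrays. The remaining TET2 probe set read 6.64 and 6.87 in TET2WT, 4.57 and 3.89 in TET2M and 2.10 and 2.64 in Mock. By the first and the last of these probe sets, TET2 RNA was detected above Mock in both construct lines, and more so in TET2WT. Of the melanocyte markers, SOX10 read between 9.38 and 9.65 and MITF between 6.30 and 6.96, whereas MLANA, TYR and TYRP1 lay below the low-value level of 2.64 on all 6 arrays. This level is the 40th percentile of the mean values of all probe sets and is used here as the line between low and higher readings.

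TET2 is a dioxygenase that oxidises 5-methylcytosine, the methylated base found in mammalian DNA mainly where a C is followed by a G (a CpG). Oxidised methylcytosine can be replaced by unmodified cytosine, so that TET enzymes counter promoter methylation. Promoters dense in CpG (CpG islands) are mostly unmethylated in normal tissue, whereas promoters poor in CpG are often methylated in cells that do not use the gene. TET2 is often lost or mutated in blood cancers, and low levels of its product 5-hydroxymethylcytosine are known in melanoma. DNA methylation was not measured on these arrays.

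The 10 genes have little family resemblance, and their promoters ranged from almost no CpG to dense CpG. The 250 bases before the RefSeq start (GRCh38.p14) are shown for UTS2 and HSD17B3, the members with the highest differences between TET2WT and Mock, and for GPX3 and CFAP251, whose promoters were CpG-rich. Both UTS2 starts of the promoter table are shown. The reference gene table extends UTS2 further upstream, to an end that has no window here. The same holds for PPP1R1C, which begins at chr2:181954480 while its window is chr2:181985603-181985902. NALCN also extends upstream past its window, from 101416758 to 101417179 on chromosome 13. Each CpG is in capitals, and the sequences read 5′ to 3′ on the strand of the gene. The UTS2 stretches are chr1:7853066-7853315 and chr1:7853492-7853741 on the minus strand, HSD17B3 is chr9:96302177-96302426 on the minus strand, GPX3 is chr5:151020341-151020590 on the plus strand and CFAP251 is chr12:121918342-121918591 on the plus strand.
UTS2, downstream start: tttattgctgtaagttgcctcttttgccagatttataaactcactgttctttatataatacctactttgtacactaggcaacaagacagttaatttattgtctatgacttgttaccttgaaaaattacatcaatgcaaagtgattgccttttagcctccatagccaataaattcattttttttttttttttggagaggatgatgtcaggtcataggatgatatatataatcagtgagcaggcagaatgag
UTS2, upstream start: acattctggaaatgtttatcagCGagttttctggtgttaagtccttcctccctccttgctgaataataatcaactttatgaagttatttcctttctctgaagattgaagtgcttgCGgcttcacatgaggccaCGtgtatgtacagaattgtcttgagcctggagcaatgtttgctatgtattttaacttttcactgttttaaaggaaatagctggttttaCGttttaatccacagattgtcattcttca
HSD17B3: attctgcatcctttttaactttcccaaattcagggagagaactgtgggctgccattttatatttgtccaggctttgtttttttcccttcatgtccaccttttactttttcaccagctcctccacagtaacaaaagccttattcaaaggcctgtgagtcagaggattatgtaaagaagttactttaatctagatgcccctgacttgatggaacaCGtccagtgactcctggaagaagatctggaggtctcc
GPX3: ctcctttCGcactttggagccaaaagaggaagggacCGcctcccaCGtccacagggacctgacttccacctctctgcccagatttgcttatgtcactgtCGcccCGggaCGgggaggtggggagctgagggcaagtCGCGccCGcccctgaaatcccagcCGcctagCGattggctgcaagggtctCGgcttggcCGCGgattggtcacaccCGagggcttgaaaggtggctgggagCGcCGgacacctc
CFAP251: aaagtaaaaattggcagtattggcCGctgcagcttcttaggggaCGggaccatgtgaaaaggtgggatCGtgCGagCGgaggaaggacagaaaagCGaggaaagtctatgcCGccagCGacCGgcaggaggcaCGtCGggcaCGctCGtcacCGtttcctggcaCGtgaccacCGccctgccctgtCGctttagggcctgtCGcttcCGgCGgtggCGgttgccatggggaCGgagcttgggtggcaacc
The UTS2 stretches hold 0 and 4 CpG and the HSD17B3 stretch 1, against 17 in GPX3 and 22 in CFAP251.

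Over the full window of 300 bases (250 before and 50 after the start), the 10 genes had 12 windows, since UTS2 and MBL2 have 2 starts each in that table. CFAP251 and NALCN each held 25 CpG and GPX3 held 21. The other windows held 8 (SEMA3G), 5 (CHRNA9), 5 (LAPTM5), 3 (HSD17B3), 2 (PPP1R1C), 1 and 4 (UTS2), and 3 and 2 (MBL2). Low CpG counts thus prevailed among the members, although SEMA3G and LAPTM5 were GC-rich, at 63.3% and 64.7% GC. Fewer than 10 CpG were found in 9 of the 12 windows (75%), against 21.8% of the 16623 windows of other tested genes. Among genes that were likewise at least 2-fold higher in TET2WT than in Mock at both concentrations, 53 were not members, and 34.4% of their 64 windows (40 genes matched) held fewer than 10. Over all 35116 windows of the reference table the share was 43.6%. These shares describe windows, of which several can belong to 1 gene, and no test was made. The limit of 10 falls in the gap between the member windows with 8 and with 21 CpG, and no other limit was used. The median count was 4.5 in the member windows and 24 in those of other tested genes. It was 19 in the 64 windows of the non-members and 14 over all windows.

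**Figure D1:**
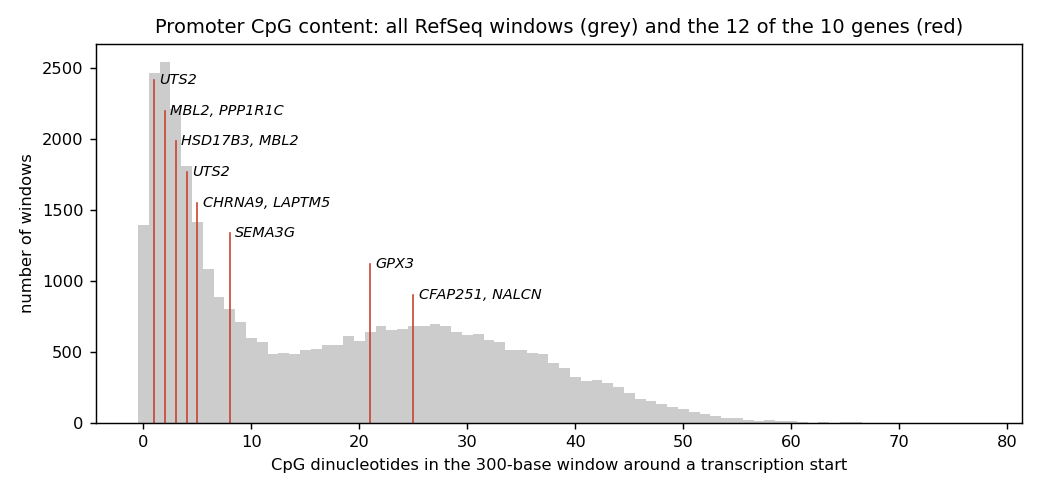
Number of CpG in the 300-base promoter window (x axis) for all windows of the reference table (grey bars, number of windows), with the 12 windows of the 10 members in red. Most member windows lie at the low end (9 of 12 below 10), while those of GPX3, CFAP251 and NALCN lie at 21 to 25.

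The letters TATAAA, searched on both strands and at any position, were present in 2 member windows and in 11.5% of all windows. The 2 were the UTS2 window with 1 CpG and that of HSD17B3. The E-box CACGTG, a palindrome and so the same on both strands, was present in the upstream UTS2 window and in CFAP251, and in 7.26% of all windows. A match describes the letters only, and whether TATAAA lay where a TATA box works was not tested. No chromosome held more than 2 of the genes: UTS2 and LAPTM5 lie on chromosome 1, and the others on chromosomes 2 (PPP1R1C), 3 (SEMA3G), 4 (CHRNA9), 5 (GPX3), 9 (HSD17B3), 10 (MBL2), 12 (CFAP251) and 13 (NALCN).

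Among the secreted products, UTS2 encodes urotensin 2, a vasoactive peptide. Its main probe set (the one with the highest mean, used for each gene) gave 6.31 for TET2WT cells at high glucose and 7.06 at normal glucose. The matching readings were 2.29 and 2.30 for Mock, and 2.22 and 2.13 for TET2M. UTS2 was the gene with the highest difference of the 10, and its Mock and TET2M readings lay below the low-value level. The measured log2 difference between TET2WT and Mock was 4.02 at high and 4.76 at normal glucose. Set against the low-value level in place of the Mock reading, TET2WT was at least 12.7-fold and at least 21.4-fold higher.

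SEMA3G encodes a class 3 semaphorin, a secreted ligand of neuropilin and plexin receptors. Its probe set read 6.83 and 7.14 in TET2WT at high and normal glucose, 3.40 and 3.54 in Mock, with 2.97 and 2.81 in TET2M. The 3 lines did not overlap, with TET2M lowest. TET2WT was 10.8-fold above Mock at high and 12.1-fold at normal glucose, and the mean log2 difference was 3.52 ± 0.12 (SD between the 2 concentrations, which are not replicates).

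GPX3 encodes the secreted glutathione peroxidase of plasma, which reduces peroxides. It read 6.13 and 6.35 in TET2WT, 3.86 and 3.99 in Mock, with 3.46 and 3.83 in TET2M, in the order high and normal glucose that is kept in all lists below. TET2WT stood apart. TET2M lay below Mock at each concentration by this probe set, but not by the other GPX3 probe set given below. The difference between TET2WT and Mock was 2.27 and 2.36, which are 4.82-fold and 5.13-fold.

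MBL2 encodes mannose-binding lectin, a liver-made plasma protein that starts the lectin pathway of complement. Its readings were 4.69 and 4.31 in TET2WT, 2.54 and 2.28 in Mock, with 2.09 and 2.32 in TET2M. All Mock and TET2M arrays were below the low-value level. Against that level, TET2WT was at least 4.14-fold and at least 3.18-fold higher.

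At the membrane, CHRNA9 encodes a nicotinic acetylcholine receptor subunit known from the hair cells of the inner ear. It read 4.75 and 4.92 in TET2WT, 2.22 and 2.20 in Mock, with 2.30 and 2.42 in TET2M. Mock and TET2M were again below the low-value level on all 4 arrays. TET2WT was at least 4.31-fold higher at high glucose and at least 4.85-fold at normal glucose, against that level.

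NALCN encodes the sodium leak channel, which carries a resting inward current in neurons. The readings were 4.95 and 5.43 in TET2WT, 2.95 and 2.87 in Mock, with 2.65 and 2.74 in TET2M. TET2WT was the high line, by 2.00 and 2.56 over Mock. Every TET2M reading was below every Mock reading.

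LAPTM5 encodes a lysosomal membrane protein found mainly in blood cells. It read 6.85 and 7.30 in TET2WT, 4.87 and 4.91 in Mock, with 4.84 and 5.06 in TET2M. Mock and TET2M overlapped, and TET2WT lay above both. TET2WT was 3.94-fold above Mock at high glucose and 5.24-fold at normal glucose.

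Among the intracellular products, HSD17B3 encodes the testicular enzyme that reduces androstenedione to testosterone. It read 8.10 and 8.48 in TET2WT, 4.50 and 4.22 in Mock, with 3.85 and 3.99 in TET2M. The lines did not overlap, and TET2M was lowest. The TET2WT value was 12.1-fold and 19.2-fold that of Mock, with a mean log2 difference of 3.93 ± 0.47.

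PPP1R1C encodes an inhibitor subunit of protein phosphatase 1. Its readings were 7.70 and 8.28 in TET2WT, 4.90 and 5.11 in Mock, with 4.38 and 4.24 in TET2M. The lines again did not overlap. TET2WT lay 2.80 above Mock at high glucose, which is 6.96-fold, and 3.17 above it at normal glucose.

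CFAP251 (formerly WDR66) encodes a protein of the axoneme of cilia and sperm flagella. It read 6.69 and 6.10 in TET2WT, 3.06 and 2.67 in Mock, with 3.07 and 3.08 in TET2M. The difference between TET2WT and Mock was 3.63 and 3.43. Together with MBL2, it was one of the 2 members whose difference was larger at high glucose, whereas in the other 8 it was larger at normal glucose. The gap between the concentrations was widest in UTS2, at 0.74.

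**Figure D2:**
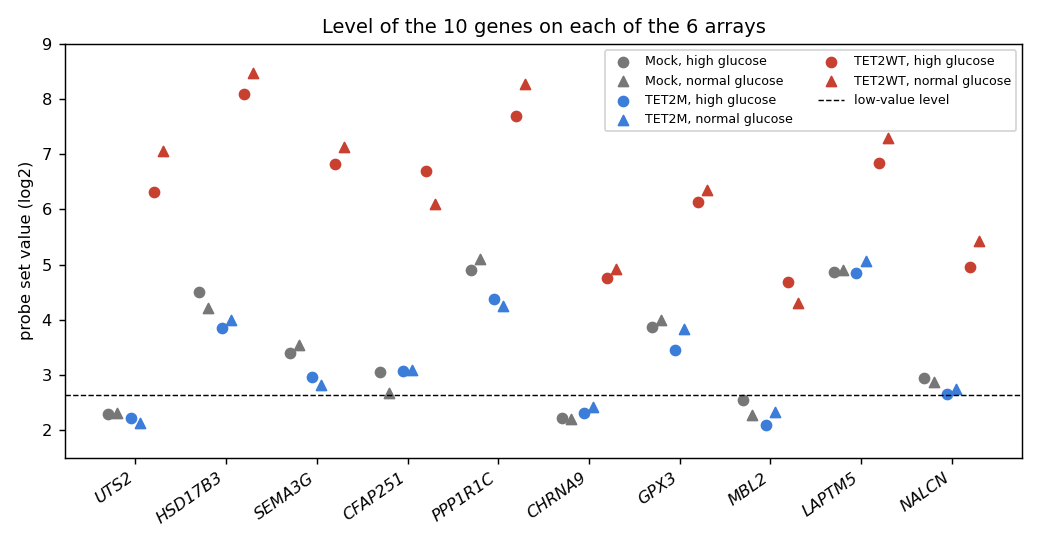
Log2 values (y axis) of the main probe set of each of the 10 genes (x axis) on the 6 arrays, with Mock in grey, TET2M in blue and TET2WT in red, circles for high and triangles for normal glucose. The dashed line is the low-value level of 2.64. In every gene both TET2WT points lie above all Mock and TET2M points, and the Mock points of UTS2, CHRNA9 and MBL2 lie under the dashed line.

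Over the 10 genes, the values ran from 4.31 to 8.48 in TET2WT, from 2.20 to 5.11 in Mock and from 2.09 to 5.06 in TET2M. All 10 genes were at least 2-fold higher in TET2WT than in Mock at both concentrations, as the choice fixes, and 0.437% of all genes tested were. The median difference over the 10 genes was 2.81, and -0.01 over all genes. Only 3 genes, UTS2, CHRNA9 and MBL2, were below the low-value level on both Mock arrays, and 7 were above it on both. A step from below to above this level thus describes 3 of the 10, and the other 7 read above it in Mock. A reading above the level does not show expression, since the medians of the 6 arrays, 2.96 to 3.03, also lay above it. In Mock, NALCN read 2.95 and 2.87 and CFAP251 3.06 and 2.67, around or below those medians. The same 3 genes entered the table of tested genes only through their TET2WT arrays, since 7 of 10 would pass the filter on low values without them.

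Just inside the choice were LAPTM5 and NALCN, whose smaller difference over the concentrations was 1.98 and 2.00. Genes that are not members but reached at least 1.98 were TET2 itself (5.55), TIMP4 (2.10), AOPEP (2.02), PKDCC (2.01) and MEST (1.98). Just outside lay CT55 (1.91), PDGFA (1.90) and ASS1 (1.87). The members are therefore most, but not all, of the genes with a difference of this size.

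Several probe sets of 1 gene did not always give the same difference. The 10 genes had 18 probe sets that name 1 gene only: 4 genes had 1, 4 had 2 and 2 had 3. At least a 2-fold excess in TET2WT at both concentrations was seen in 12 of the 18. GPX3 was high by both of its probe sets, the other one reading 6.37 and 6.47 in TET2WT, 3.55 and 3.17 in Mock, with 3.35 and 3.29 in TET2M. PPP1R1C was also high by both, the other one giving 3.97 and 4.01 in TET2WT, 2.27 and 2.30 in Mock, with 2.33 and 1.99 in TET2M. In LAPTM5 the second probe set differed less, by 0.98 at high and 1.64 at normal glucose.

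The remaining probe sets of UTS2, CFAP251 and NALCN did not carry the difference. The other UTS2 probe set differed by 0.24 and -0.13 between TET2WT and Mock. The other 2 of CFAP251 differed by 0.51 and 0.49, and by 0.32 and 0.08. Those of NALCN differed by 0.04 and -0.10, and by 0.10 and 0.03. These low probe sets read between 1.73 and 3.05 on all arrays, around or below the low-value level, and 4 of the 18 were below it on all 6 arrays. Which transcripts each probe set reads was not tested. With the mean of all probe sets of a gene in place of the highest, the difference was 2.22 for UTS2, 1.41 for CFAP251 and 0.77 for NALCN.

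**Figure D3:**
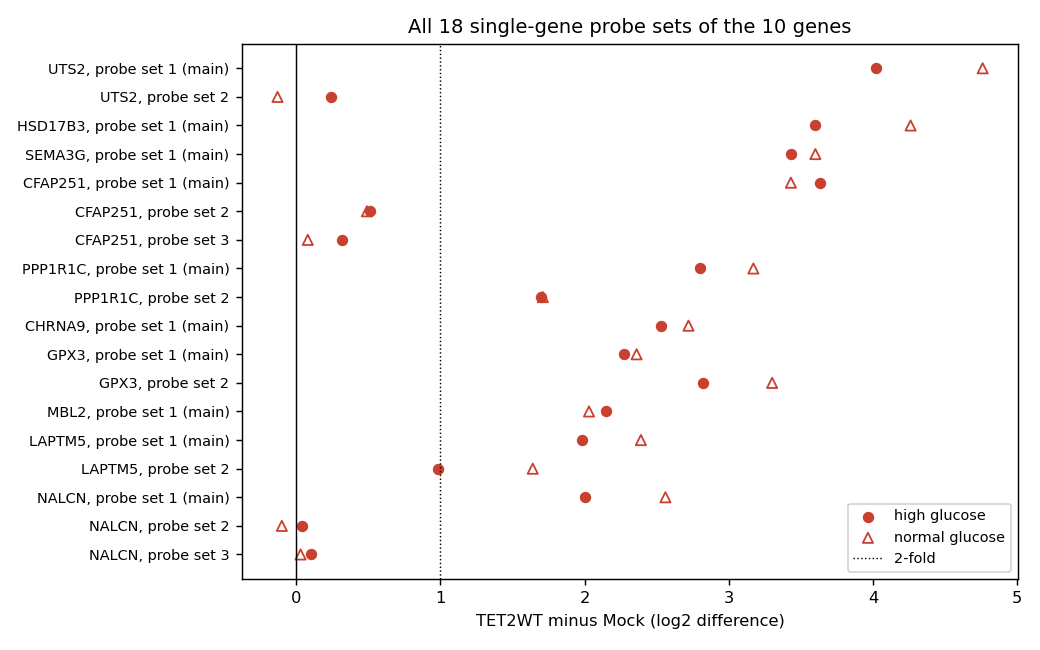
Difference between TET2WT and Mock (log2, TET2WT minus Mock) for each of the 18 single-gene probe sets of the 10 genes, at high glucose (circles) and normal glucose (triangles). The dotted line marks 2-fold. Both GPX3 and both PPP1R1C probe sets lie above it, while UTS2, CFAP251 and NALCN each have 1 probe set above it and 1 or 2 below it.

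The TET2M line did not show the high readings. All 10 genes were at least 2-fold higher in TET2WT than in TET2M at both concentrations, against 0.499% of all genes, and the TET2WT readings of each gene lay above all its TET2M readings. None of the 10 was at least 2-fold higher in TET2M than in Mock at both concentrations, against 0.0347% of all genes. By its main probe set, TET2 itself stood 3.50 above Mock in TET2M and 5.64 above Mock in TET2WT, so that TET2M had the lower TET2 reading. Another TET2 probe set gave 1.86 and 4.385, and the remaining one 0.135 and 0.00. Whether these probe sets read both constructs alike was not tested. Whether the level or the construct goes with the members' readings cannot be told apart, since each level was seen with 1 construct. These comparisons share the Mock or TET2WT arrays that chose the genes, so no test is given.

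Placed on a scale where Mock is 0 and TET2WT is 1, the TET2M line lay between -0.23 (PPP1R1C) and 0.060 (CFAP251), with a median of -0.096. By the main probe sets, TET2M was below Mock at both concentrations in 6 genes: UTS2, HSD17B3, SEMA3G, PPP1R1C, GPX3 and NALCN. The share over all genes was 33.9%. The other GPX3 probe set did not repeat this, at -0.20 and 0.12. Among low readings, the other sets of PPP1R1C (0.06 and -0.31) and UTS2 (0.18 and -0.18) did not either, while both of NALCN did. In UTS2 both lines were below the low-value level, so its differences of -0.07 and -0.17 lie among low readings. Of the 7 genes above that level on both Mock arrays, 5 were lower in TET2M. CFAP251 and CHRNA9 were above Mock at both (CHRNA9 among low readings), and MBL2 and LAPTM5 were above at one and below at the other. The deepest values were those of PPP1R1C, 0.52 and 0.87 under Mock, SEMA3G, 0.43 and 0.73 under, and HSD17B3, 0.65 and 0.23 under. The median difference between TET2M and Mock was -0.21 over the 10 genes and -0.02 over all genes. Among the 53 other genes at least 2-fold higher in TET2WT, 12 (22.6%) were below Mock in TET2M at both concentrations, and their median place on the scale was 0.053.

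**Figure D4:**
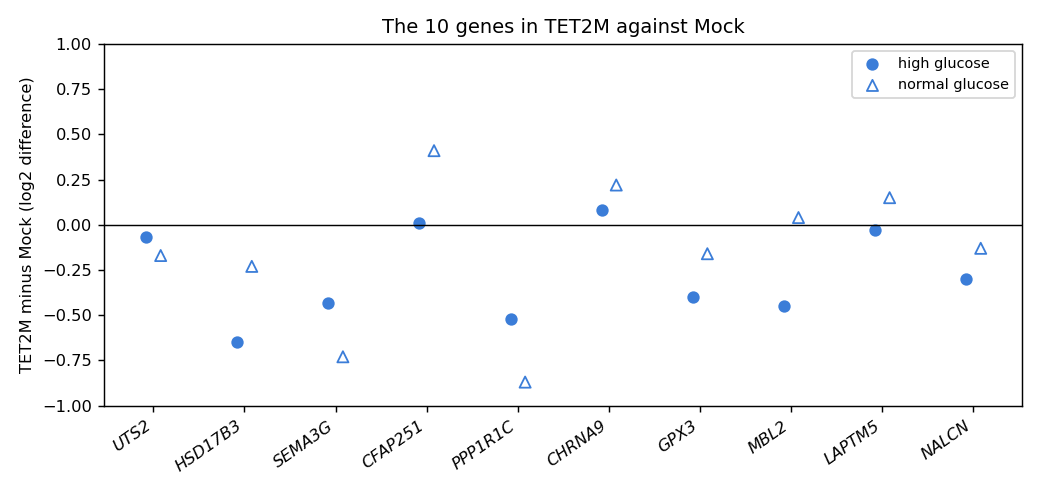
Difference between TET2M and Mock (log2, TET2M minus Mock) by the main probe set of each of the 10 genes at high (circles) and normal (triangles) glucose. Both points lie under 0 in 6 genes, and the lowest point, -0.87, is that of PPP1R1C at normal glucose.

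The mean glucose difference over the lines was not itself a value that the choice used, with a limit for UTS2, CHRNA9 and MBL2 given below. It was tested over the 3 lines with limma, with a term for the line. None of the 10 genes passed an adjusted p of 0.05, and 1 gene of all 14428 did (0.00693%). At an unadjusted p under 0.05 there were 2 members, CFAP251 and GPX3, against 15.4% of all genes. CFAP251 differed by 0.32 ± 0.12 (SE, adjusted p = 0.302 in limma), high minus normal glucose, and by 0.049 with the mean of its probe sets. GPX3 differed by -0.24 ± 0.081 (adjusted p = 0.264 in limma), and by -0.063 with the mean of its probe sets. Its main probe set read lower at high glucose in all 3 lines, whereas the other read 0.38 and 0.06 higher at high glucose in Mock and TET2M. When 2-fold glucose changes were simulated in 200 genes, with noise drawn from the model's own fit, this model recovered 96% of them. That share is over genes of the whole table and may not carry over to the measured data. There the gene DKK1, with a glucose estimate of 1.22 ± 0.26, did not pass (adjusted p = 0.166 in limma). UTS2, CHRNA9 and MBL2 were below the low-value level in Mock and TET2M, where a response could not be read. For them the test rests on the TET2WT arrays. Those arrays entered the choice and carried these genes past the filter on low values, so their glucose results are not free of the choice. Responses of 2-fold or smaller were thus not shown to be absent.

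The other 8 glucose differences lay between -0.24 ± 0.098 (LAPTM5) and 0.14 ± 0.13 (MBL2), with adjusted p-values in limma between 0.330 and 0.812. For UTS2 the estimate was -0.22 ± 0.17. It was carried by the TET2WT arrays, where the reading at high glucose was 0.75 lower, while Mock and TET2M differed by -0.01 and 0.09. Without either TET2WT array the estimates of UTS2, HSD17B3 and SEMA3G turned to 0.04, 0.07 and 0.01.

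Within TET2WT, 8 of the 10 genes read lower at high than at normal glucose, the exceptions being CFAP251 (0.59 higher) and MBL2 (0.38 higher). Over all genes 48.3% were lower at high glucose in that line. The members' median was -0.35 and the median of all genes 0. After UTS2, the lower readings at high glucose were by 0.58 in PPP1R1C, 0.48 in NALCN, 0.45 in LAPTM5, 0.38 in HSD17B3, 0.31 in SEMA3G, 0.22 in GPX3 and 0.17 in CHRNA9. In Mock 5 of 10 were lower at high glucose (median 0.005, and 54.5% of all genes were lower), and in TET2M 7 of 10 were (median -0.11, and 53.3%). The 53 other genes at least 2-fold higher in TET2WT also leaned this way, with 36 (67.9%) lower at high glucose in TET2WT and a median of -0.20. The members all come from the same pair of TET2WT arrays, so their shared direction is not repeated evidence.

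A term for the glucose response of TET2WT against that of Mock and TET2M, averaged, was fitted for this difference. The choice asked for a large difference from Mock at each concentration, which bounds this term, so its values are not free of the choice. In limma, 0 of the 10 genes passed, and 0% of all genes did. UTS2 differed by -0.79 ± 0.11 (adjusted p = 0.531 in limma) and NALCN by -0.48 ± 0.13 (adjusted p = 0.531 in limma), the only 2 members at an unadjusted p under 0.05, against 9.18% of all genes. PPP1R1C gave -0.55 ± 0.21, HSD17B3 -0.45 ± 0.24 and CFAP251 0.40 ± 0.23. With the mean of probe sets the values were -0.30 for UTS2, -0.37 for PPP1R1C and 0.21 for CFAP251, and NALCN was not among the 9 members tested. This model had 1 residual degree of freedom. On simulated data it recovered 0% of genes with a 4-fold response particular to TET2WT and 74% with an 8-fold one, so responses of the sizes measured here were below what the design can call.

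**Figure D5:**
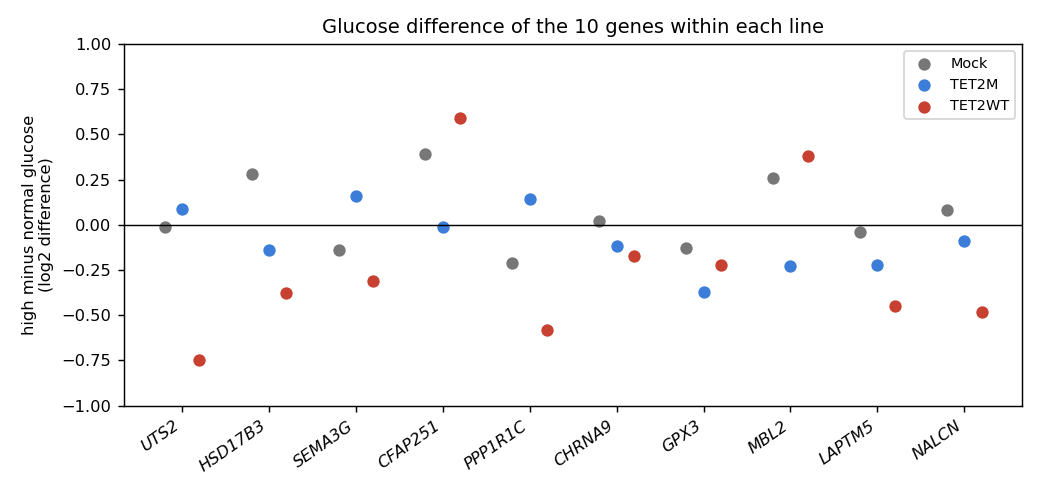
Glucose difference (log2, high minus normal glucose) of each of the 10 genes within Mock (grey), TET2M (blue) and TET2WT (red), 1 pair of arrays each. The TET2WT points of 8 genes lie under 0, down to -0.75 for UTS2, while the Mock and TET2M points of the 10 genes lie between -0.37 and 0.39.

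The genes whose profile over the 6 arrays was most like that of the members were sought among the 63 genes at least 2-fold higher in TET2WT than in Mock at both concentrations. Each profile was put on the scale where Mock is 0 and the mean of TET2WT is 1, and likeness was the root mean square distance over the 6 arrays from the members' median profile. The closest were WIPI1 (0.0286), a phosphoinositide-binding protein of autophagy, PKDCC (0.0446), S100A3 (0.0529) and SRGN (0.0561), a proteoglycan of secretory granules. NANOS1, PDGFA, LAMA5, PLAT, CAPS and PTPRE followed, at 0.0564 to 0.0861. The members' own distances ran from 0.0292 (HSD17B3) to 0.118 (CFAP251). WIPI1 read 7.26 and 7.44 in TET2WT, 5.88 and 5.92 in Mock, with 5.80 and 5.89 in TET2M. Likeness of shape over 6 arrays takes no account of size, and the WIPI1 difference of 1.45 was lower than that of any member.

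The nearest tested gene on each side of each member, 20 in all, was compared between TET2WT and Mock in limma. Untested genes were passed over, so such a neighbour can lie far from the member. Of these, 3 passed. Over all genes 2.01% passed as higher and 2.2% as lower. BCL7A, which follows CFAP251, read 5.45 and 4.98 in TET2WT, 3.90 and 3.81 in Mock, with 4.24 and 4.06 in TET2M, and rose by 1.36 ± 0.12 (adjusted p = 0.00489). SDC3, the syndecan gene that follows LAPTM5, read 7.29 and 7.58 in TET2WT, 6.21 and 6.58 in Mock, with 6.26 and 6.77 in TET2M, and rose by 1.04 ± 0.097 (adjusted p = 0.00591). ITPRID2, which precedes PPP1R1C, moved against its neighbour, from 8.42 and 8.49 in Mock to 7.24 and 7.47 in TET2WT, and fell by 1.10 ± 0.092 (adjusted p = 0.00451). The other 17 neighbours lay between -0.63 (DKK1) and 0.35 (FGF14-AS2) and did not pass. In all, 7 of the 20 had an unadjusted p under 0.05 in limma, against 20.2% of all genes. Each of the 3 calls was lost when any 1 of the 6 arrays was left out, and that of SDC3 also without the glucose term (adjusted p = 0.054).

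The families and pathways of the members were read from lists of 194 partner genes, of which 123 were tested. In TET2WT against Mock, 3 rose and 7 fell in limma, and the median difference was 0.035. Calls over all genes are 2.01% higher and 2.2% lower, as above, and no call among the partners held with any 1 of the 6 arrays left out. Without the glucose term, the calls of AKR1C1, AKR1C2, CD59 and PPP1R14C were lost as well. At an unadjusted p under 0.05 there were 33 partners (26.8%), against 20.2% of all genes. The median of every list with more than 1 gene tested lay between -0.085 and 0.19, near that of all genes.

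The lectin pathway and complement list, around MBL2, had 17 genes tested, of which 3 rose and 1 fell. CFI, the protease that degrades C3b, rose by 1.24 ± 0.14 (adjusted p = 0.0122 in limma), from 4.74 and 4.97 in Mock to 5.75 and 6.43 in TET2WT. C1R, a protease of the classical pathway, rose by 0.70 ± 0.097 (adjusted p = 0.0194 in limma). CD59, a membrane inhibitor of the terminal complex, rose by 0.50 ± 0.087 (adjusted p = 0.0385 in limma). C3, the central component, fell by 1.64 ± 0.15 (adjusted p = 0.00644 in limma), from 6.10 and 6.80 in Mock to 4.78 and 4.85 in TET2WT. Its difference between TET2M and Mock, -1.54, did not pass (adjusted p = 0.0586 in limma).

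Of the steroid hormone enzymes around HSD17B3, 12 were tested, 0 rose and 3 fell. These were AKR1C2 (-1.13 ± 0.10, adjusted p = 0.00548 in limma), AKR1C3 (-1.09 ± 0.17, adjusted p = 0.0262 in limma) and AKR1C1 (-0.73 ± 0.12, adjusted p = 0.0314 in limma), aldo-keto reductases that interconvert steroids. They are near-identical in sequence, so their probes may read one another and the 3 calls may not be separate. AKR1C1 differed by -0.17 with the mean of its probe sets and did not pass. SRD5A1, the 5-alpha-reductase, differed by -0.32 and HSD17B8 by 0.13.

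Of 10 semaphorin signalling genes tested beside SEMA3G, 0 rose and 1 fell, the receptor PLXND1 (-0.60 ± 0.098, adjusted p = 0.0314 in limma). SEMA3A, at 0.36, and the receptor NRP2, at -0.29, did not pass. Of 11 genes of protein phosphatase 1 beside PPP1R1C, the inhibitor PPP1R14C fell by 0.80 ± 0.11 (adjusted p = 0.0202 in limma) and 0 rose. Of 19 glutathione and antioxidant genes beside GPX3, the mitochondrial superoxide dismutase SOD2 fell by 0.78 ± 0.11 (adjusted p = 0.0216 in limma) and 0 rose. The SOD2 probe set read 3.68 and 3.96 in Mock and 3.08 and 3.00 in TET2WT, not far above the low-value level. GPX8 (0.41), GCLM (0.38) and the extracellular dismutase SOD3 (0.49) did not pass.

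In the remaining 5 lists no gene passed in either direction. UTS2R, the urotensin receptor, differed by 0.39 ± 0.11 (adjusted p = 0.131 in limma). It read 4.57 and 4.81 in TET2WT against 4.34 and 4.26 in Mock. Of 27 genes of motile cilia and flagella beside CFAP251, SPAG16 differed most, by -1.06 ± 0.29 (adjusted p = 0.117 in limma), and the list's median was 0.025. Of 11 nicotinic receptor genes, CHRNE differed by 0.24, CHRNB1 by 0.22 and CHRNA10, the known partner subunit of CHRNA9, by -0.14. Of 13 lysosomal membrane genes, LAMP2 differed by 0.52 and LAPTM4A and LAPTM4B, relatives of LAPTM5, by 0.23 and -0.26.

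NALF1, an auxiliary subunit of the NALCN channel, read 2.87 and 2.90 in TET2WT and 3.06 and 3.29 in Mock, a difference of -0.29 that did not pass. In TET2M it read 4.25 and 4.12, which is 1.01 above Mock (adjusted p = 0.0697 in limma). The channel gene and its subunit were thus highest in different lines. In TET2M against Mock, 0 of the 123 partners passed in limma, 16 (13.0%) had an unadjusted p under 0.05, and 0.097% of all genes passed. That comparison shares its Mock arrays with the one of TET2WT.

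Several members are known mainly from other tissues, so markers of 8 cell types were read beside them. Of 51 markers, 29 were tested in TET2WT against Mock. In limma 0 rose and 3 fell: the keratin KRT14 by 2.40 ± 0.11 (adjusted p = 4.42e-04), the matrix proteoglycan LUM by 1.06 ± 0.13 (adjusted p = 0.0137) and the melanocyte factor MITF by 0.60 ± 0.11 (adjusted p = 0.0433). Leaving out any 1 of the 6 arrays ended these calls, and those of LUM and MITF were also lost without the glucose term. At an unadjusted p under 0.05, 1 marker was higher and 4 were lower, together 17.2% of the 29 against 20.2% of all genes. Over all genes 2.2% passed as lower.

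The sums below add log2 values of different probe sets, many of them low readings. They describe the readings and are not amounts of a cell type. Beside LAPTM5, the blood cell markers summed to 22.33 to 22.91 in TET2WT, 21.86 to 22.77 in Mock and 21.64 to 22.07 in TET2M over 8 measured genes. PTPRC, HCLS1 and TYROBP were below the low-value level on all 6 arrays. CD53 (2.70 to 3.05), SPI1 (2.81 to 3.18) and CORO1A were above it on all 6, and CD52 and LCP1 on some. CORO1A read 4.65 and 4.66 in TET2WT against 4.74 and 4.66 in Mock. Beside MBL2, the 8 hepatocyte markers summed to 21.21 to 21.62 in TET2WT, 19.80 to 21.54 in Mock and 20.59 to 20.89 in TET2M, and ALB, APOA2, FGA and AHSG were below the level on all 6 arrays. TTR, the highest of them, read 3.69 and 3.73 in TET2WT and 3.66 and 3.65 in Mock. Beside HSD17B3, the 6 Leydig cell markers summed to 14.81 to 15.50 in TET2WT and 15.07 to 15.28 in Mock, with 3 below the level on all arrays. INSL3 read 3.97 and 3.64 in TET2WT and 3.58 and 3.96 in Mock. Beside NALCN, the 6 neuron markers summed to 19.38 to 19.68 in TET2WT, 18.60 to 19.47 in Mock and 19.69 to 19.91 in TET2M, with 1 below the level on all arrays and a highest reading of 3.88. The part of other cell types in the members' readings was not tested.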

How the data were processed

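RNA of the 3 lines at 2 glucose concentrations was measured on 6 Affymetrix arrays. Per the submitters' processing notes, the authors used Affymetrix Expression Console to make the deposited log2 values. Software version, probe set summary method and genome build: not given in the sources used here. After sorting, no 2 columns were more than 0.12 apart. The arrays had therefore been normalized to nearly the same distribution, and a change shared by all genes could not be seen. That the scale is log2 was inferred from the range of values, 1.56 to 13.78.

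Of 54675 probe sets (62 of them controls), 41097 had 1 gene symbol, 1801 several and 11777 none, and only the first kind was used. Symbols of 41043 were updated by gene ID with the RefSeq table of GRCh38.p14. Probe sets with a mean under the 40th percentile (2.64) were left out, and each gene took the remaining probe set of highest mean, giving 14428 genes. The fits used limma 3.58.1 in R 4.3.3 (line and glucose terms, all 6 arrays, 2 residual degrees of freedom, prior 3.97). The other model also had a TET2WT-specific glucose term (1 residual degree of freedom, prior 1.72). Tests were two-sided and adjusted by Benjamini-Hochberg over all genes, with a threshold of 0.05. ± is an SE for limma estimates and an SD between the concentrations otherwise.

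The members and the lists were chosen with earlier results of these data known. Named are the members, TET2, list genes that passed or up to 4 per list with the largest differences, the neighbours, the 10 nearest profiles and the genes at the edge of the choice. The models were tested on simulated data with 200 of 14428 genes changed and noise drawn from the models' own fitted variances. There, 87.5% of genes changed 2-fold between TET2WT and Mock were recovered (9 false calls) and 93% between TET2M and Mock (10 false calls). Alternatives were other probe set rules, filters, normalizations, variance models and covariates, and each array left out. Python 3.11.15 with pandas 2.3.3 and matplotlib 3.10.9 was used for tables and figures.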

Additional observations from a re-analysis of the deposited data

How the results depend on the processing

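With 1 array per line and concentration, the counts of called genes were the least stable values. Partner genes in TET2WT against Mock numbered 10 in limma, 22 (12 higher, 10 lower) with an intensity trend in the variance, 6 without the glucose term and 0 with any array left out, where 19 to 29 had an unadjusted p under 0.05. Partner genes in TET2M against Mock numbered 0, with 2 from the mean of probe sets, 1 without the filter on low values, 1 after quantile normalization and 2 with an intensity trend. Marker genes numbered 3, with 1 without the glucose term and 0 with any array left out (4 to 10 unadjusted). Neighbours numbered 3, with 5 (3 higher, 2 lower) with an intensity trend and 0 with any array left out (4 to 6 unadjusted). Leaving out an array leaves 1 residual degree of freedom. Over all genes the intensity trend called 1528 in TET2WT against Mock (290 higher and 318 lower without it) and 573 for glucose (1 without it).

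No member passed in limma for glucose under 13 alternatives (0 to 3 unadjusted) or for the response particular to TET2WT under 6 (1 to 3 unadjusted). The glucose estimates ran from -0.38 to 0.04 (UTS2), from -0.26 to 0.07 (HSD17B3) and from -0.23 to 0.01 (SEMA3G) with each array left out. The GPX3 response particular to TET2WT was 0.03, and -0.15 with the mean of probe sets. For glucose that mean gave 0.049 for CFAP251 and -0.063 for GPX3 and for PPP1R1C. It also took the members' median difference between TET2WT and Mock from 2.81 to 2.28. Counts chosen after seeing the data were stable: members under Mock in TET2M numbered 6, or 5 with the mean of probe sets, and 8 were lower at high glucose in TET2WT under all 3 alternatives run.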
